A study of Homo sapiens with 24 samples.

Results

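The genes described here are 10 genes of the translation initiation complex eIF4F and its regulators. They were chosen by name, with earlier results of these data known. They are the MNK kinase genes MKNK1 and MKNK2, the cap-binding protein genes EIF4E and EIF4E2, and the helicase gene EIF4A2. The others are the scaffold genes EIF4G1, EIF4G2 and EIF4G3 and the repressor genes EIF4EBP1 and EIF4EBP2. All 10 are among 54583 genes in the count table, had reads in every library and were among the 12058 genes tested. The cells were PANC-1, a human pancreatic ductal adenocarcinoma line, and therefore 1 line without independent lines beside it. Plates were treated for 6 h with DMSO (the vehicle), with 40 μM CID661578, a small molecule ligand of MNK2, or with 5 μM cercosporamide, an MNK inhibitor. Each treatment had 4 replicates. Total cytosolic RNA and RNA bound to more than 3 ribosomes (polysome RNA) were sequenced for each, which gave 24 libraries in 6 groups. A total and a polysome library of the same treatment and replicate number are taken as 1 plate below, which gives 12 plates. The sample labels name no plate, and the pairing of libraries follows the study's methods, where both RNAs came from the lysate of each sample.

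eIF4E binds the cap of an mRNA and joins the scaffold eIF4G and the RNA helicase eIF4A in the eIF4F complex, which brings the small ribosomal subunit to the message. The 4E-BP proteins occupy the site of eIF4E that eIF4G needs, and phosphorylation by mTOR releases them. MNK1 and MNK2, which are activated by ERK and p38, dock on eIF4G and phosphorylate eIF4E.

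Counts assigned to genes ranged from 9268041 to 12184749 in 23 libraries, and the polysome library of cercosporamide replicate 4 held 1592459. The ductal keratin genes KRT8, KRT18 and KRT19 had at least 6149 counts in every library, whereas EPCAM had 12 to 126 and KRT7 5 to 298, and the mesenchymal gene VIM had 3289 to 23152. PRSS1 and AMY2A (acinar), INS (endocrine), PTPRC (blood) and DCN (fibroblast) were at 0 in all 24 libraries. Of the other markers listed for these types, CPA1 (acinar) and GCG (endocrine) had 0 to 3 counts, PECAM1 (endothelial) 0 to 5 and COL1A1 (fibroblast) 3 to 82. No pair of libraries agreed within sampling noise. A level is given below as read count relative to the library total (CPM), scaled by TMM over all 24 libraries, so it is relative to the other RNA of its library, and fewer copies per cell cannot be told apart from more RNA of other genes. Translational efficiency (TE) is the level in polysome RNA relative to total RNA of the same plate, and a TE change is its log2 difference from DMSO. A gene was called at an adjusted p under 0.15 in edgeR's quasi-likelihood test, and for TE also at a change of more than 1.2-fold. All adjusted p values below are from that test, adjusted over the 12058 genes. The 4 DMSO plates served as the control of either compound, so their values are not independent of each other.

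With DMSO, the member levels ran from EIF4G2 at the top to EIF4G3 and MKNK2 at the bottom. Per kilobase of the annotated transcript in DMSO total RNA, EIF4G2, which encodes the eIF4G-like protein DAP5 that lacks the eIF4E-binding site, had the highest level at 396 ± 63.4 CPM per kb (SD, n = 4, as for all levels). EIF4EBP1 followed at 153 ± 42.7 and EIF4E2 at 108 ± 10.96 CPM per kb, with spreads that met. EIF4E lay at 42.1 ± 6.85 CPM per kb. The classical scaffold EIF4G1 at 30.0 ± 4.46 and EIF4A2 at 29.5 ± 2.66 CPM per kb did not differ beyond their spread. MKNK1 stood at 9.41 ± 1.26 CPM per kb and EIF4EBP2 at 3.27 ± 0.563. EIF4G3 at 1.46 ± 0.493 and MKNK2 at 1.40 ± 0.891 CPM per kb were the lowest and met in their spread. MKNK2 rested on 3 to 120 counts per library, so its ratios carry the widest errors among the members.

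Reads of some members could not be assigned to 1 locus. Of the 50-base stretches of the EIF4E transcript, 20.9% also occur in EIF4EP2, a processed copy on chromosome 17, and EIF4EP2 was listed with 0.722 to 0.833 counts for every EIF4E count in the 24 libraries. EIF4E values therefore belong to EIF4E and EIF4EP2 together. EIF4A2 shared 6.70% of such stretches with other genes and MKNK1 2.79% with its antisense gene MKNK1-AS1. Counting was unstranded and left out reads overlapping several genes, and MKNK1-AS1 had 0 to 3 counts. MKNK2, EIF4G1, EIF4G2, EIF4G3 and EIF4EBP1 shared none. EIF4A1, the main eIF4A gene of most cells, was listed at 0 in all 24 libraries. Its locus on chromosome 17, from 7572825 to 7579006 (hg38), lies wholly within the readthrough gene SENP3-EIF4A1, which had 0 to 4 counts, and its copies EIF4A1P10 and EIF4A1P2 (picked after their values were seen) had 715 to 3400 and 149 to 1072 counts. Reads overlapping several genes were left out of the counts, so the 0 of EIF4A1 does not give its expression level. The eIF4A helicase is thus described here by EIF4A2 alone.

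**Figure D1:**
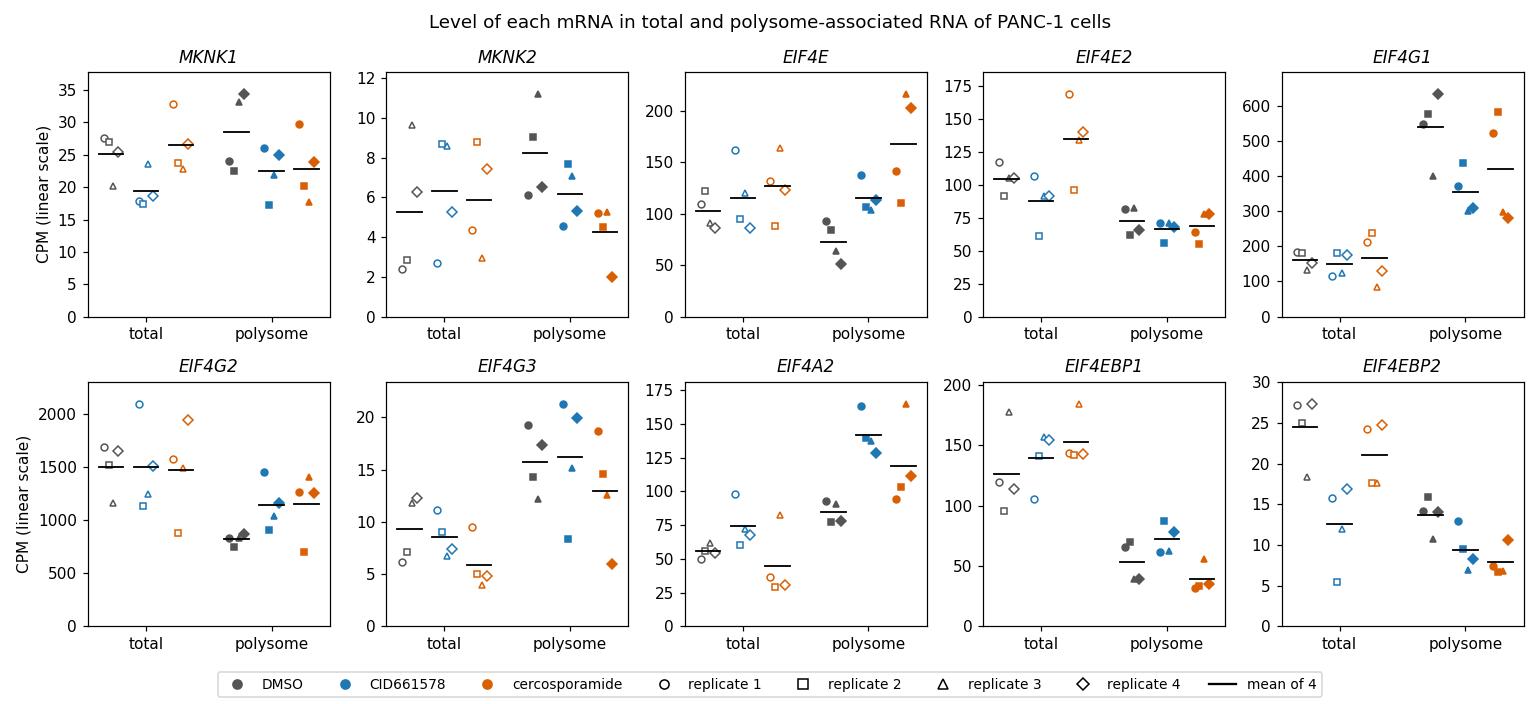
CPM of each member in each of the 24 libraries on linear axes that start at 0, with total RNA as open symbols on the left and polysome RNA as filled symbols on the right, coloured by treatment, shaped by replicate, and with a bar at the mean of 4. All 4 EIF4E and EIF4A2 polysome values of either compound lie above all 4 DMSO values, and with DMSO EIF4G1 has 133 to 184 CPM in total RNA and 400 to 633 in polysome RNA.

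With DMSO alone, the members were split in their level in polysome RNA relative to total RNA. This ratio is not the share of an mRNA on polysomes. An mRNA with 3 ribosomes or fewer is not in the polysome RNA, and reading frame length was not taken into account. EIF4G1, MKNK2, EIF4G3 and EIF4A2 were higher in polysome than in total RNA, and EIF4EBP1, EIF4G2, EIF4EBP2, EIF4E2 and EIF4E were lower. These were 9 calls among 10 members, in a comparison in which 56.0% of all genes tested were called, and the median member lay at −0.17 (log2) against −0.01 for all genes. EIF4G1, on chromosome 3 from 184314606 to 184335358, had 184, 180, 133 and 152 CPM in total RNA of replicates 1 to 4 and 549, 576, 400 and 633 CPM in polysome RNA. The ranges were far apart, and EIF4G1 was 3.31-fold higher in polysome RNA (log2 1.72, standard error 0.181, adjusted p = 6.19e-08). At the other end, EIF4EBP1, on chromosome 8 from 38030534 to 38060365, had 119, 95.9, 177 and 114 CPM in total RNA and 65.8, 70.3, 39.0 and 38.9 CPM in polysome RNA. It was lower on polysomes in all 4 plates (log2 −1.26, standard error 0.197, adjusted p = 1.62e-05), although the plates ranged from −0.45 to −2.19.

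The scaffold genes were split between the sides, whereas both cap-binding genes and both repressor genes were lower on polysomes. Among the scaffolds, EIF4G3 was higher in polysome RNA (log2 0.79, standard error 0.291, adjusted p = 0.0309) whereas EIF4G2 was lower (log2 −0.86, standard error 0.167, adjusted p = 0.000197). Among the kinases, MKNK2 was higher (log2 0.80, standard error 0.327, adjusted p = 0.0520), and MKNK1 was not called at 0.17 (95% interval −0.25 to 0.59). EIF4A2 stood at 0.61 (standard error 0.172, adjusted p = 0.00580). EIF4EBP2, the other repressor gene, stood at −0.83 (standard error 0.235, adjusted p = 0.00584). Of the cap-binding genes, EIF4E stood at −0.51 (standard error 0.169, adjusted p = 0.0166) and EIF4E2, whose product 4EHP binds the cap without joining eIF4G, at −0.53 (standard error 0.160, adjusted p = 0.00979). The side of a gene depends on how the fractions are scaled to each other: with TMM factors computed within each fraction, all genes shifted by 0.27, EIF4E and EIF4E2 (adjusted p = 0.263 and 0.208) were no longer called, and MKNK1 was (0.45, adjusted p = 0.0777). The call was also lost for EIF4E without replicate 4 (adjusted p = 0.1504), for EIF4G3 without replicate 1 (0.242), and for MKNK2 without replicate 1 (0.227) or 2 (0.274). With the GC trend of each library taken out, EIF4E turned to 0.032 (adjusted p = 0.889) and MKNK2 stood at 0.51 (adjusted p = 0.154), neither called, and with no filter on low counts EIF4E was not called either (−0.39, adjusted p = 0.157).

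**Figure D2:**
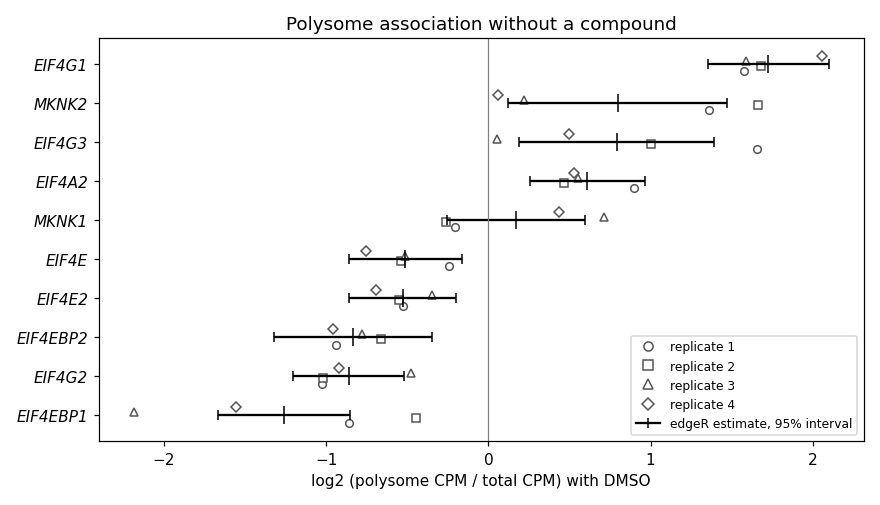
Log2 ratio of polysome CPM to total CPM with DMSO for each member, with a symbol for each of the 4 plates and the edgeR estimate with its 95% interval as a black bar; the vertical line marks an equal level. The 4 plates of EIF4G1 lie between 1.58 and 2.06 and those of EIF4EBP1 between −2.19 and −0.45.

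Neither compound changed the total RNA level of a member past the threshold. With CID661578, 0 of 10 members were called in total RNA, where 0.448% of all genes were, and 1 had an unadjusted p under 0.05, as did 864 of all genes. With cercosporamide the counts were again 0 called and 1 with an unadjusted p under 0.05, where 0.381% of all genes were called and 1360 had such a p. In DESeq2, 1 member was called in total RNA with CID661578 and 0 with cercosporamide. That gene was EIF4EBP2, on chromosome 10 from 70404145 to 70428618. Its total RNA held 27.2, 25.03, 18.4 and 27.4 CPM with DMSO, 15.7, 5.49, 12.0 and 16.9 CPM with CID661578, and 24.3, 17.7, 17.6 and 24.8 CPM with cercosporamide. All CID661578 values lay below all DMSO values. The difference was −1.03 (log2, standard error 0.269), with an adjusted p of 0.221 in edgeR's quasi-likelihood test and 0.0211 in DESeq2, and it shrank to −0.70 without replicate 2. The member with an unadjusted p under 0.05 with cercosporamide was EIF4G3, at −0.74 (log2, standard error 0.350, adjusted p = 0.439).

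In polysome RNA, EIF4E and EIF4A2 rose with both compounds and EIF4G1 fell with both. With CID661578 these were all 3 calls among the 10 members, where 10.1% of all genes were called. With cercosporamide EIF4G2 rose as well, MKNK2 and EIF4EBP2 fell, and the count was 6 of 10, where 32.2% of all genes were called. The median member stood at −0.06 with CID661578 and −0.25 with cercosporamide, against −0.01 over all genes with either compound.

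For TE, 0 of 10 members were called with CID661578, where 0.207% of all genes were called. Of the 10 members, 2 (EIF4E and EIF4G2) had an unadjusted p under 0.05, as did 1069 of all genes, and DESeq2 called 0 members too. The TE changes with CID661578 ranged from −0.73 for MKNK2 to 0.54 for EIF4E, and the median member stood at 0.24 against 0.03 for all genes. With cercosporamide, 5 of 10 members were called, where 28.4% of all genes were. EIF4E, EIF4A2 and EIF4G2 rose in TE, and EIF4EBP1 and MKNK2 fell. The median member stood at −0.37 against −0.00 for all genes. The difference between the TE changes of both compounds was called for 3 members, EIF4EBP1, EIF4EBP2 and EIF4E2, each with a higher TE under CID661578, where 15.5% of all genes were called. The compounds were given at different doses, so these differences are between the treatments as given.

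**Figure D3:**
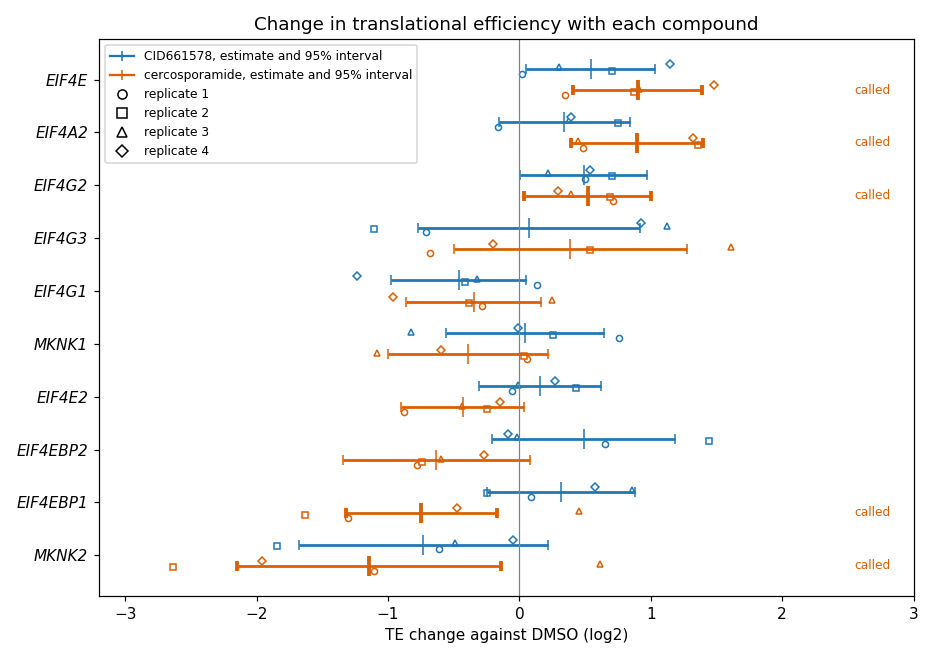
TE change against DMSO (log2) of each member with CID661578 (blue) and cercosporamide (orange), as the edgeR estimate with its 95% interval and a symbol for each replicate; the calls are marked at the right. EIF4E and EIF4A2 lie highest with cercosporamide at 0.90 each, and EIF4EBP1, EIF4EBP2, EIF4E2 and MKNK1 have estimates on opposite sides of 0 for the compounds.

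Of the kinase genes, MKNK2, which lies on chromosome 19 from 2037471 to 2051244, fell with cercosporamide. Its polysome RNA held 6.13, 9.03, 11.2 and 6.53 CPM with DMSO, 4.56, 7.67, 7.09 and 5.33 with CID661578, and 5.23, 4.49, 5.25 and 1.99 with cercosporamide. All cercosporamide values lay below all DMSO values, and the last of them rested on 3 counts, with an exact Poisson 95% interval of 0.410 to 5.80 CPM that covers counting error only. The polysome change with cercosporamide was −0.85 (log2, standard error 0.270, adjusted p = 0.0329). Total RNA of MKNK2 was scattered, at 2.39, 2.85, 9.62 and 6.27 CPM with DMSO and 4.38, 8.78, 2.96 and 7.43 with cercosporamide, so the TE change differed between replicates, from −2.63 to 0.61. Its estimate was −1.14 with cercosporamide (standard error 0.488, adjusted p = 0.113) and −0.73 with CID661578 (standard error 0.460, adjusted p = 0.644). Leaving out replicate 1, 2 or 4 ended the cercosporamide TE call, with values of −1.16, −0.60 and −1.09, and also without the shallow cercosporamide replicate 4 alone (−0.93, adjusted p = 0.266), and the polysome call without replicate 2 (adjusted p = 0.151). With the GC trends taken out the TE change with cercosporamide was −0.78 and not called (adjusted p = 0.268). The trend was fitted in each library, so its removal also takes out any treatment effect that follows transcript GC content. MKNK1, on chromosome 1 from 46557407 to 46604268, was called in no comparison between treatments. Its levels ran from 17.3 to 34.4 CPM over all libraries, and its TE changes were 0.04 with CID661578 (95% interval −0.56 to 0.64) and −0.39 with cercosporamide (95% interval −0.999 to 0.22).

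EIF4E, on chromosome 4 from 98879276 to 98929133, showed the largest polysome change with cercosporamide among the members. Its polysome RNA held 92.4, 83.8, 63.6 and 51.0 CPM with DMSO, 138, 107, 103 and 113 with CID661578, and 141, 110, 216 and 203 with cercosporamide. No value with a compound reached down to the DMSO range. EIF4E in polysome RNA rose 1.58-fold with CID661578 (log2 0.66, standard error 0.222, adjusted p = 0.103) and 2.29-fold with cercosporamide (log2 1.198, standard error 0.227, adjusted p = 0.000895). Total RNA overlapped between the treatments, at 86.1 to 122 CPM with DMSO, 86.1 to 161 with CID661578 and 87.8 to 164 with cercosporamide. TE rose with cercosporamide in all 4 replicates, by 0.35, 0.87, 0.91 and 1.48 on the log2 scale, with an estimate of 0.90 (standard error 0.239, adjusted p = 0.0121). With CID661578 the replicates stood at 0.02, 0.71, 0.30 and 1.15 and the estimate at 0.54 (standard error 0.238, adjusted p = 0.513). The difference between the compounds, −0.36 with a 95% interval of −0.85 to 0.13, was not called (adjusted p = 0.407). The EIF4E transcript has a GC content of 34.5%, the lowest of the members, and once the GC trend of each library was taken out, its TE change with cercosporamide was 0.08 (adjusted p = 0.857) and its polysome change with cercosporamide 0.46 (adjusted p = 0.114, still called). With CID661578 the values were then 0.099 in TE (adjusted p = 0.9748) and 0.16 in polysome RNA (adjusted p = 0.794), neither called. Without replicate 1, 3 or 4 EIF4E was not called in polysome RNA with CID661578 (adjusted p = 0.192, 0.296 and 0.306). EIF4EP2 stood at 0.55 and 0.98 in TE with CID661578 and cercosporamide.

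EIF4E2, on chromosome 2 from 232550689 to 232583644, was the other cap-binding gene among the members. With cercosporamide its log2 polysome to total ratios were −1.40, −0.80, −0.79 and −0.84, below all 4 of DMSO (−0.52, −0.55, −0.35 and −0.69) and all 4 of CID661578 (−0.58, −0.12, −0.36 and −0.42). Polysome levels themselves overlapped, at 62.3 to 82.6 CPM with DMSO, 56.2 to 71.3 with CID661578 and 55.5 to 78.1 with cercosporamide. The TE change with cercosporamide was −0.43 (standard error 0.227, adjusted p = 0.207) and with CID661578 0.16 (standard error 0.226, adjusted p = 0.849), neither called. The difference between them was called at 0.59 (standard error 0.228, adjusted p = 0.124). That call was lost on leaving out any of the replicate numbers, with adjusted p of 0.372, 0.368, 0.178 and 0.151 without replicates 1 to 4, and with the GC trends taken out (0.41, adjusted p = 0.224).

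Of the scaffold genes, EIF4G1 fell in polysome RNA with both compounds and EIF4G2 rose with cercosporamide. EIF4G1 had 373, 438, 299 and 310 CPM in polysome RNA with CID661578 and 522, 581, 298 and 279 with cercosporamide, next to the DMSO values given above. The CID661578 values were lower than DMSO in each replicate, and the cercosporamide values in 3 of 4. EIF4G1 in polysome RNA fell with CID661578 (log2 −0.62, standard error 0.190, adjusted p = 0.0774) and with cercosporamide (log2 −0.41, standard error 0.191, adjusted p = 0.142). Its TE changes, −0.46 and −0.35, were not called (adjusted p = 0.597 and 0.372). The cercosporamide polysome call was lost without the shallow cercosporamide replicate 4 (−0.26, adjusted p = 0.389), without replicate 3 (adjusted p = 0.243) or 4 (0.467), and the CID661578 call without replicate 1, 3 or 4 (adjusted p = 0.178, 0.196 and 0.286). With the GC trends taken out neither was called, at −0.40 with CID661578 (adjusted p = 0.371) and −0.21 with cercosporamide (adjusted p = 0.467).

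EIF4G2, on chromosome 11 from 10797046 to 10808926, had 826, 748, 831 and 869 CPM in polysome RNA with DMSO, 1449, 910, 1036 and 1155 with CID661578, and 1259, 699, 1405 and 1253 with cercosporamide. All CID661578 values and 3 of 4 cercosporamide values lay above the DMSO range. The polysome changes were nearly equal at 0.46 and 0.46, of which that with cercosporamide was called (adjusted p = 0.0873) and that with CID661578 was not (adjusted p = 0.177). The TE changes were 0.49 with CID661578 (standard error 0.235, adjusted p = 0.558) and 0.52 with cercosporamide (standard error 0.235, adjusted p = 0.136). The difference of the TE changes was −0.03, with a 95% interval of −0.52 to 0.45. Of 14 alternatives, the TE call with cercosporamide was made in 4 and the polysome call with cercosporamide in 3. The TE call of EIF4G2 with cercosporamide was lost on leaving out any replicate number (adjusted p = 0.327, 0.394, 0.236 and 0.167 without replicates 1 to 4), and its polysome call without replicate 1, 3 or 4 (adjusted p = 0.212, 0.395 and 0.255) or without cercosporamide replicate 4 (0.189). With the GC trends taken out EIF4G2 had neither call with cercosporamide (TE 0.24, adjusted p = 0.544; polysome RNA 0.29, adjusted p = 0.297), nor had it with no filter (adjusted p = 0.374 and 0.310). EIF4G3, on chromosome 1 from 20806292 to 21176897, which encodes a further eIF4G scaffold, was called with neither compound. Its polysome RNA ran from 5.96 to 21.3 CPM, and its TE changes of 0.07 and 0.39 had 95% intervals of −0.78 to 0.92 and −0.50 to 1.27.

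EIF4A2, on chromosome 3 from 186783577 to 186789897, rose in polysome RNA with both compounds. Its polysome RNA held 93.0, 77.1, 91.1 and 78.4 CPM with DMSO, 164, 140, 137 and 128 with CID661578, and 94.3, 104, 165 and 111 with cercosporamide. Its total RNA held 49.9, 55.8, 62.1 and 54.4 CPM with DMSO, 98.5, 60.0, 71.8 and 67.7 with CID661578, and 36.3, 29.2, 82.5 and 30.9 with cercosporamide. On polysomes every compound value exceeded every DMSO value, whereas in total RNA 3 of 4 cercosporamide values lay below the DMSO range and that of replicate 3 above it. The polysome changes were 0.75 with CID661578 (standard error 0.179, adjusted p = 0.0228) and 0.47 with cercosporamide (standard error 0.181, adjusted p = 0.0748). The TE change was 0.90 with cercosporamide (standard error 0.244, adjusted p = 0.0144), positive in 4 of 4 replicates, and 0.34 with CID661578 (standard error 0.241, adjusted p = 0.681), positive in 3 of 4. The difference of −0.55 between the compounds was not called (95% interval −1.06 to −0.05, adjusted p = 0.178). The TE call with cercosporamide was kept on leaving out each replicate, with values from 0.72 to 1.03, but not with the GC trends taken out (0.35, adjusted p = 0.327). Without replicate 2, 3 or 4 EIF4A2 was not called in polysome RNA with cercosporamide (adjusted p = 0.182, 0.394 and 0.216), nor without the plate of the shallow library (0.158). With the GC trends taken out, its polysome change was 0.073 with cercosporamide (adjusted p = 0.816) and 0.50 with CID661578 (adjusted p = 0.186), neither called. The cercosporamide polysome call was also absent with no filter on low counts (0.35, adjusted p = 0.395), and neither polysome call was made with no replicate block (adjusted p = 0.185 with cercosporamide and 0.218 with CID661578).

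The TE changes of both repressor genes differed between the compounds, as did that of EIF4E2. EIF4EBP1 polysome RNA held 61.9, 87.5, 62.4 and 78.4 CPM with CID661578 and 32.0, 33.4, 55.6 and 35.1 with cercosporamide, with no overlap, while total RNA held 106, 142, 157 and 155 CPM with CID661578 and 144, 142, 185 and 143 with cercosporamide. The log2 polysome to total ratios were −0.77, −0.69, −1.33 and −0.98 with CID661578 and −2.17, −2.08, −1.73 and −2.03 with cercosporamide. The DMSO ratios, −0.86, −0.45, −2.19 and −1.55, spread over both ranges. EIF4EBP1 TE fell with cercosporamide against DMSO (−0.75, standard error 0.279, adjusted p = 0.0687), lower in 3 of 4 replicates, and stood at 0.32 with CID661578 (standard error 0.273, adjusted p = 0.732). The difference between the compounds was 1.06 (standard error 0.278, adjusted p = 0.0265), the same sign in 4 of 4 replicates. The call against DMSO was lost without replicate 1 (−0.55, adjusted p = 0.294) or 2 (−0.44, adjusted p = 0.458) and with the GC trends taken out (−0.39, adjusted p = 0.333), and that of the difference without replicate 2 (0.94, adjusted p = 0.170).

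EIF4EBP2 showed the same order of TE changes with fewer reads, 16 to 310 counts per library. Its polysome RNA held 14.2, 15.8, 10.7 and 14.1 CPM with DMSO, 12.9, 9.44, 6.93 and 8.22 with CID661578, and 7.36, 6.69, 6.80 and 10.6 with cercosporamide. The cercosporamide values all lay below the DMSO range, and EIF4EBP2 in polysome RNA fell (log2 −0.86, standard error 0.239, adjusted p = 0.0152), a call kept on leaving out each replicate. With CID661578 the polysome change was −0.56 (standard error 0.225, adjusted p = 0.175). Since total RNA was also lower with CID661578, the TE change was 0.49 there (standard error 0.338, adjusted p = 0.673), against −0.63 with cercosporamide (standard error 0.344, adjusted p = 0.223). By replicate the TE changes with CID661578 were 0.65, 1.44, −0.02 and −0.08, positive in 2 of 4, and replicate 2 held 50 counts in total RNA. The difference between the compounds was 1.12 (standard error 0.351, adjusted p = 0.0565), in the same direction in 4 of 4 replicates. It was not called without replicate 1 (1.00, adjusted p = 0.256) or 2 (0.77, adjusted p = 0.380). Once GC trends were taken out, the differences of EIF4EBP1 and EIF4EBP2 were 1.15 and 1.17, both called (adjusted p = 0.00310 and 0.0271).

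Members with a more GC-rich annotated 5′ UTR had lower TE changes with cercosporamide, with MKNK1 as the clearest exception. In the reference transcripts (GENCODE), the 5′ UTR had a GC content of 47.6% in EIF4E, 52.8% in MKNK1, 52.9% in EIF4A2, 57.1% in EIF4G2, 61.9% in EIF4G1, 64.3% in EIF4G3, 70.0% in EIF4EBP1, 72.2% in EIF4E2, 76.7% in EIF4EBP2 and 84.5% in MKNK2. EIF4E, with a 5′ UTR of 21 nt, and EIF4A2, with 34 nt, lay at the low end and had the highest TE changes with cercosporamide, and MKNK2 at the high end had the lowest with both compounds. Across the 10 genes, Pearson's r with the TE change was −0.82 for cercosporamide and −0.47 for CID661578. Across the 9518 protein-coding genes with an annotated 5′ UTR (94.7% of those tested) it was −0.26 and −0.22. These are values across genes, which share libraries and are not replicates, and 5′ UTR GC content went with the GC content of the whole transcript (r = 0.34). With these genes divided into 4 equal groups by 5′ UTR GC content, the median TE change was 0.30 with cercosporamide and 0.17 with CID661578 in the lowest group, and −0.21 and −0.11 in the highest. Of the members in the lowest group, EIF4E, EIF4A2 and EIF4G2 lay above that median with both compounds and MKNK1 below it. EIF4EBP2 was the member of the highest group whose estimate with CID661578 (0.49) was positive.

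**Figure D4:**
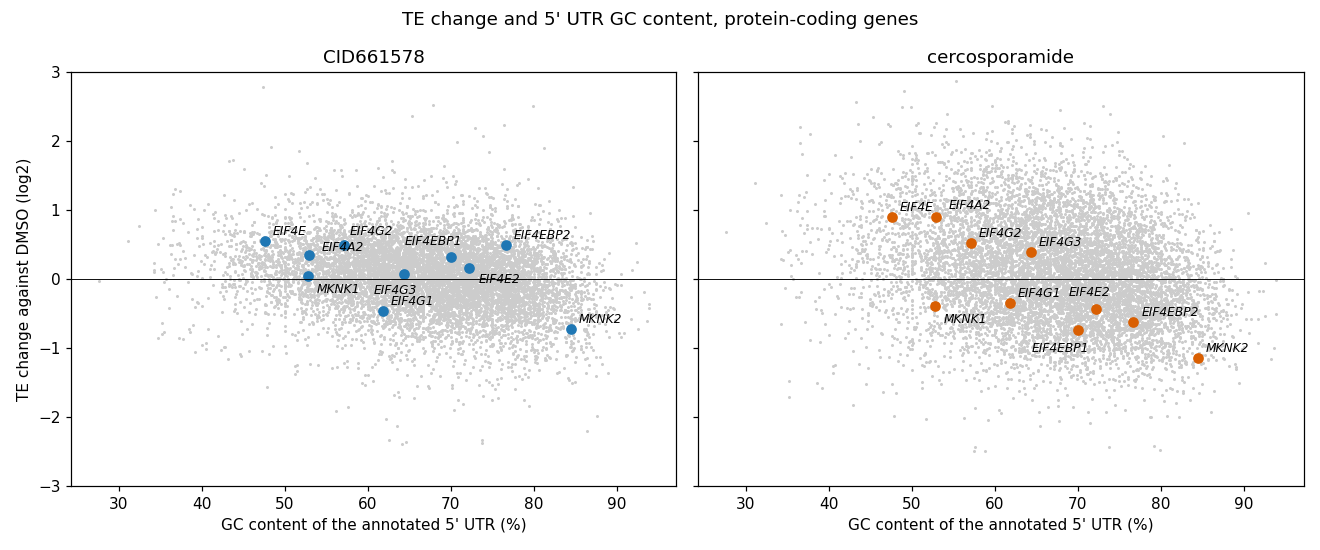
TE change against DMSO (log2) over the GC content of the annotated 5′ UTR (%) for protein-coding genes (grey) and the members (coloured, named), with CID661578 on the left and cercosporamide on the right. With cercosporamide the members run from EIF4E (47.6%, 0.90) to MKNK2 (84.5%, −1.14); with CID661578 EIF4EBP1 and EIF4EBP2 lie above 0.

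Genes whose products work with the members were taken from a separate list of 17 eIF4F partners, of which 12 were tested. With cercosporamide 3 of 12 rose in TE and 0 fell, where 28.4% of all genes were called: DDX3X, a DEAD-box helicase (1.22, standard error 0.270, adjusted p = 0.00365), EIF3E, a subunit of the eIF3 complex (1.19, standard error 0.254, adjusted p = 0.00266), and EIF4B, which stimulates eIF4A (0.67, standard error 0.255, adjusted p = 0.0718). The list median was 0.28, against −0.00 for all genes. The same 3 genes differed between the compounds, each lower with CID661578 (−1.02, −0.84 and −0.94 for DDX3X, EIF3E and EIF4B), where 15.5% of all genes were called. Of these differences 0 were called without replicate 2, that of EIF4B was not called without replicate 1, and that of EIF3E was not called without replicate 3 or with the GC trends taken out. In TE with CID661578, 0 of 12 were called by edgeR or DESeq2, with 1 at an unadjusted p under 0.05. In TE with cercosporamide EIF4B was not called without replicate 1, 2 or 4, without the shallow cercosporamide replicate 4 alone or with no filter, and EIF3E was not with the GC trends taken out. Without the shallow library EIF4EBP3, the third 4E-BP gene, was tested and called lower, and PAIP1, which binds the poly(A)-binding protein, was called higher. In polysome RNA 5 of 12 were called with CID661578 (3 up, 2 down), where 10.1% of all genes were, and 3 with cercosporamide (all up), where 32.2% of all genes were. With DMSO 10 of 12 differed between the fractions (7 higher on polysomes, 3 lower), where 56.0% of all genes did. In total RNA edgeR and DESeq2 called 0 with either compound, and 1 with CID661578 and 2 with cercosporamide had an unadjusted p under 0.05. Beside EIF4A1, the cap-binding genes EIF4E3 and EIF4E1B were listed at 0 in every library, and EIF4EBP3 had 0 to 12 counts and was not among the 12058 genes tested. The EIF4EBP3 locus on chromosome 5, from 140547662 to 140549576, lies wholly within the readthrough gene ANKHD1-EIF4EBP3, which had 0 to 20 counts. Reads overlapping several genes were left out of the counts, so the EIF4EBP3 counts do not give its expression level. Its call without the shallow library rests on these few counts. All 14 genes of the upstream list, which holds the ERK and p38 kinases that activate MNKs and the mTORC1 genes that control 4E-BPs, were tested. With cercosporamide RPS6KB2, an S6 kinase gene, fell in TE (−1.66, standard error 0.418, adjusted p = 0.00891), and 0 of the others were called. RHEB, the GTPase that activates mTORC1, differed between the compounds (0.87, standard error 0.236, adjusted p = 0.0309), a difference not called without replicate 2. In TE with CID661578, 0 of 14 were called by edgeR or DESeq2, and 4 had an unadjusted p under 0.05. In total RNA edgeR called 0 with either compound, with 2 (CID661578) and 1 (cercosporamide) at an unadjusted p under 0.05, and DESeq2 called 0 and 1. In polysome RNA edgeR called 2 with cercosporamide, RPS6KB2 and RHEB, both down, and 0 with CID661578, where 4 had an unadjusted p under 0.05 and DESeq2 called 3. With DMSO 8 of 14 differed between the fractions, 5 higher on polysomes and 3 lower, where 56.0% of all genes did.

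The genes most like each member in their log2 polysome to total ratio over the 12 plates were taken from 7903 genes with a sufficient level. For EIF4E this was EIF4EP2 (Pearson's r = 0.99), its copy, followed by IDE (0.94). For EIF4A2 it was GNAI3 (0.96), for EIF4G1 SLC2A6 (0.97), for EIF4G2 TMEM41B (0.91) and for EIF4G3 ITSN1 (0.88). For EIF4EBP1 it was COTL1 (0.96), for EIF4EBP2 AKIP1 (0.91), for EIF4E2 RPA3 (0.95), for MKNK1 UNC13B (0.94) and for MKNK2 WDR5 (0.95). These are the highest of 7903 values each, over 12 plates that share treatments and replicates, and are a description.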

How the data were processed

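The authors deposited raw read counts per gene, 1 table for 24 libraries. Smart-seq2 libraries were sequenced as 50-base paired ends, adapter and ribosomal reads were removed with BBDuk, reads were aligned to hg38 with HISAT2, and featureCounts summed them over RefSeq genes with default settings, that is without strand and with reads overlapping several genes left out. The labels name RPMI as the medium and the study's methods DMEM.

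From these counts, genes with a 0 in any library were removed, which left 12058. TMM factors were computed over all 24 libraries, and edgeR 4.0.16 (R 4.3.3) fitted quasi-likelihood models. TE was the compound-by-polysome term in a fit that also held plate terms and replicate-by-fraction terms. Total and polysome RNA were each fitted with replicate and treatment. Calls needed a Benjamini-Hochberg adjusted p under 0.15, the limit of the study, whose tool anota2seq was not used here, and for TE and the comparison of fractions also more than 1.2-fold. The members and lists were chosen with earlier results of these data known. All 10 members are named; of the lists, up to 3 called genes in each direction per TE comparison are named. Transcript lengths, GC content and 5′ UTRs came from the canonical transcripts of GENCODE v44 on hg38, matched by symbol or RefSeq synonym. Alternatives were DESeq2 1.42.0, its size factors, TMM within each fraction, other filters, no replicate block, DMSO with 1 compound only, removal of GC trends (a transcript GC content was at hand for 96.7% of genes tested), a limit of 0.05, and leaving out each replicate. On simulated counts with 191 tested genes changed by 1.5 (log2) in TE with CID661578, 72.8% were called, with 23 calls among 11515 unchanged genes. That planted change is larger than the TE change of any member, at most −0.73 with CID661578 and −1.14 with cercosporamide (both MKNK2). The share called does not hold for changes of the members' size.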

Additional observations from a re-analysis of the deposited data

Results flagged for a closer look

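In 3 of 60 sets of 4 replicates a member's value stood far from the others by Dixon's criterion, and chance alone gives about 1 in 20. All were from cercosporamide replicate 3. EIF4A2 stood at 82.5 CPM in total RNA there, where the nearest replicate had 36.3. EIF4EBP1 stood at 185 CPM in total RNA, where the nearest had 144, and at 55.6 CPM in polysome RNA, where the nearest had 35.1. Without replicate 3 the TE change with cercosporamide was 1.02 for EIF4A2 and −1.19 for EIF4EBP1, against 0.90 and −0.75 with it, and both calls were kept (adjusted p = 0.0235 and 0.0131, edgeR). Whether these values come from the plate, the libraries or the sequencing was not tested.

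The TE changes of 3 members differed between the compounds in the test of the difference. CID661578 minus cercosporamide was 1.06 for EIF4EBP1, 1.12 for EIF4EBP2 and 0.59 for EIF4E2 (log2), each of the same sign in 4 of 4 replicates. The sign was also the same in 4 of 4 replicates for MKNK1, EIF4E and EIF4A2, which were not called. The call was lost for EIF4EBP1 without replicate 2, for EIF4EBP2 without replicate 1 or 2, and for EIF4E2 without any of the replicate numbers.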

How the results depend on the processing

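The count of members called in TE with CID661578 and in total RNA with cercosporamide was 0 under every alternative run, and that of polysome against total RNA with DMSO was 7 to 9. The 5 members called in TE with cercosporamide included 0 that were still called after removal of the GC trends, where the 1 call was EIF4EBP2. That removal also takes out treatment effects that follow GC content, so it cannot tell these from technical trends. The count of TE calls with cercosporamide was 2 at a limit of 0.05 and 2 to 4 when a replicate was left out. The 3 differences between the compounds became 1 at the limit of 0.05 and 0 to 3 with a replicate left out. For total RNA with CID661578 the count went from 0 to 1 (EIF4EBP2) with DMSO and 1 compound only, with DESeq2, without a filter and after removal of the GC trends. For polysome RNA with CID661578 the 3 calls became 0 with no replicate block, 6 with DMSO and 1 compound only, 5 with DESeq2, 0 after removal of the GC trends, 1 at the limit of 0.05 and 1 to 4 with a replicate left out. For polysome RNA with cercosporamide the 6 calls became 3 with no replicate block, 3 with DMSO and 1 compound only, 3 after removal of the GC trends, 3 at the limit of 0.05 and 3 to 5 with a replicate left out. The causes were not tested. Over all genes, the calls in polysome RNA with CID661578 went from 1221 to 69 with no replicate block.

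Same-numbered libraries deviated together (r above 0.1) in 13 of 16 pairs, from −0.02 to 0.58, so the replicate block rests on the study's model and only in part on these data. Among the member TE values under the alternatives, 230 kept their direction and their side of the threshold, 20 lost a call, 4 gained one and 6 turned. Those that turned were not called: EIF4G3 with CID661578 after removal of the GC trends (−0.011) and over the replicates left out (−0.32 to 0.45), EIF4G3 with cercosporamide (−0.062 to 0.77) and MKNK1 with CID661578 (−0.20 to 0.30) over the replicates left out. The median of all genes shifted by −0.14 in TE with cercosporamide without a filter, and in polysome RNA with cercosporamide by −0.12 with filterByExpr and −0.11 without a filter. Depth limits MKNK2, EIF4G3 and EIF4EBP2 most, since the shallow library held 3, 9 and 16 counts of them. The study calls the replicates biological and enters replicate as a batch, but does not state whether they were separate cultures on separate days. The p values rest on the spread between these plates, which edgeR moderates toward the spread of other genes. For TE the prior had 18.3 degrees of freedom and the residual 6.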
